A study of Mus musculus with 6 samples.

Results

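The regions described here were places in the mouse autosomal genome where methylated DNA formed a peak in the lung of all 3 transgenic mice and in none of the 3 wild-type mice. They were found by merging the peaks of the 6 lists on chromosomes 1 to 19 wherever peaks shared or touched at 1 bp. A merged region was kept when it was under 2500 bp wide, held a peak of each transgenic list and held no wild-type peak. Of 158077 merged autosomal regions, 157913 were under this width, and 2913 of those met the rule, which is 1.84% of them. The regions were chosen by the presence of transgenic peaks and the absence of wild-type peaks, so their scores, their distances to wild-type peaks and their entries in the authors' differential analysis are given as description, with no test.

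The libraries were made by MBD-seq, in which a protein domain that binds methylated CpG pulls methylated fragments out of sheared DNA before sequencing. One group was transgenic (labelled SPC-DNMTdelta3B/DG), with 3 lungs, and the other was wild type, with 3 lungs, and all animals were in the range of 12 to 16 months of age. The transgene encoded a deletion form of DNMT3B behind the surfactant protein C promoter, which is active in alveolar type 2 cells, while the DNA came from whole lung. The founder line and the sex of these animals are not given in the labels, and no treatment is named. For transgenic replicate 2 the genotype reads SPC-DNMTdeltaB/DG, and the sample was grouped by its title.

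DNMT3B is one of the enzymes that place methyl groups on CpG sites that carried none before, a process called de novo methylation. In most mammalian tissues CpG sites in gene bodies and between genes are largely methylated, whereas promoters rich in CpG are largely free of methylation. A capture peak therefore needs both methylated sites and enough of them close together. In whole-lung DNA, a change of methylation within a cell type and a change in the share of that cell type cannot be told apart.

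In 8 protein-coding promoters a transgenic-only region covered most of the 250 bases before the start site. Sequence is shown first for 4 of them, since these letters hold CpG sites that the capture could read. They are those with at least 150 of the bases outside every RefSeq gene span, and the other 4, of Sox30, Potegl, Arpp21 and Nat8f4, are not shown. The sequences are from RefSeq on GRCm38.p6, the patch release of the mm10 build, and each CG is in capitals. Rbm46, an RNA-binding protein gene of germ cells, is shown at chr3:82876513-82876704 on the minus strand, and all 192 bases and all 16 CG sites lay in a region. Ap1m2, which encodes an adaptor subunit of protein sorting in epithelial cells, is shown at chr9:21312350-21312583 on the minus strand, and all 234 bases and all 16 CG sites lay in a region. For the coiled-coil gene Ccdc194, shown at chr8:71525726-71525975 on the minus strand, the 250 bases held 10 CG sites and lay wholly in a region. Gnrhr, the receptor for gonadotropin-releasing hormone, is shown at chr5:86197902-86198151 on the minus strand, and bases 79 to 250, with 3 of the 7 CG sites, lay in a region.
Rbm46: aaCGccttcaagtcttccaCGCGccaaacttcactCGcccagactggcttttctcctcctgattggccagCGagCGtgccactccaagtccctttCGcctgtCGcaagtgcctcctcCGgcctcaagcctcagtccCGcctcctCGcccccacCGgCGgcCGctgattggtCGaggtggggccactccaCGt
Ap1m2: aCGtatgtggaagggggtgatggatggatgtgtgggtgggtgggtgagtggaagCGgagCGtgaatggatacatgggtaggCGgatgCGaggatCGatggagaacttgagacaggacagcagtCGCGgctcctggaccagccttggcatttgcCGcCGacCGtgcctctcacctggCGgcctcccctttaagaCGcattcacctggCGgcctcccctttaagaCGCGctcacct
Ccdc194: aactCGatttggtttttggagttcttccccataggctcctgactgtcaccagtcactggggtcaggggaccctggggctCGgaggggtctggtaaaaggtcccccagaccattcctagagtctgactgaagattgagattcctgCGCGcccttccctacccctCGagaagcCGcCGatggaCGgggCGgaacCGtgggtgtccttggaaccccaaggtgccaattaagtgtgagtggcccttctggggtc
Gnrhr: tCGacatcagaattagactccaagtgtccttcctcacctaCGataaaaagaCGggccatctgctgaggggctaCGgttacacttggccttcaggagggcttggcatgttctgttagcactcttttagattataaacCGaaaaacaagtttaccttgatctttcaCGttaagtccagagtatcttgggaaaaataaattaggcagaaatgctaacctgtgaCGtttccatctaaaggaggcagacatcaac

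The first 2 of these sequences held CG along their length. The Gnrhr sequence held fewer, 7 in 250 bases, near the median of 6 over all autosomal promoters. At Rbm46 the transgenic peaks scored 232, 77.3 and 107 in replicates 1, 2 and 3. At Ap1m2 they scored 146, 75.9 and 56.5, and at Ccdc194 they scored 198, 51.7 and 96.8. At Gnrhr the scores were 78.2, 86.5 and 68.6, so that replicate 1 was highest at the first 3 promoters and replicate 2 at Gnrhr. The score of a peak comes from the authors' own caller. It begins at 50 in every list and is not scaled between libraries, so it was used only to describe and rank peaks.

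Mature microRNAs inside the regions are shown next, because a region there covers the sequence that guides the RNA to its targets. Of 966 autosomal microRNA genes with a mature sequence in RefSeq, 5 had a mature arm in a region, with 8 arms between them. Of all autosomal genes, 4.15% had a region in the gene or within 1000 bp. MicroRNA genes with any merged region were not counted. The microRNA counts are therefore description and do not show that the regions favour or avoid microRNAs. The capitals mark the seed, bases 2 to 8, and all 8 seeds differed.
miR-6944-3p: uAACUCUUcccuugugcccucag
miR-6944-5p: gUGAGAGCggggggaguggcaag
miR-6961-3p: uCCUCUUUcuuccuggcucuag
miR-7664-5p: cAGUUUACcugucuaugagau
miR-7664-3p: uCUCUUAGgcuggguuaacuaau
miR-1a-1-5p: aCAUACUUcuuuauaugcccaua
miR-7025-5p: cGUGAGCUgaagcugguggcuccc
miR-7025-3p: cAGCACAAcuccagcucaccag

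Mir1a-1, one of the muscle microRNA genes, lay in the region with the highest lowest score of these, at positions 180388928 to 180389450 of chromosome 2 inside its host gene Mir1a-1hg. Its 3 peaks scored 139, 129.7 and 98.2 in replicates 1, 2 and 3, and the nearest peak of wild-type replicate 2 was 1165 bp away. The other 4 were inside protein-coding genes. Mir7025 lay in Pdgfra, the platelet-derived growth factor receptor of mesenchymal cells, with scores of 90.1, 90.5 and 52.6. Mir6944 lay in Dbn1, the actin-binding drebrin gene, with scores of 59.2, 59.6 and 54.7. Mir6961 in Bin2 and Mir7664 in Nsmf had lowest scores of 63.98 and 55.97. In all, 16 microRNA genes had a mature arm within 1000 bp of a region. They included the embryonic stem cell cluster of Mir302a, Mir302b, Mir302c, Mir302d and Mir367, next to a region with scores of 66.9, 125 and 54.8. They also included Mir370 in the imprinted domain of chromosome 12, with a region 770 bp from its arm that scored 113, 65.1 and 64.7.

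The 6 lists differed in length. The transgenic lists held 114780, 110715 and 74736 autosomal peaks, and the wild-type lists held 56785, 105796 and 28399. The means were 100077 ± 22040 (SD, n = 3) in the transgenic and 63660 ± 39154 (SD, n = 3) in the wild-type group. Their difference was 36417 peaks (two-sided exact permutation test over lists, p = 0.20). With 3 lists against 3 this test cannot go below 0.10, so it has little power to tell the groups apart. Read depth is unknown. Wild-type replicate 3 also had narrower peaks, with a median width of 196 bp against 374 to 457 bp in the other lists. Its peaks covered 6.37 Mb of the autosomes, against 24.7 to 60.1 Mb in the other lists. The absence of a peak therefore does not weigh the same in each wild-type list. When the 28399 highest-scoring peaks of each list were used, the same rule gave 637 transgenic-only and 154 wild-type-only regions. Of the 637, 8 overlapped one of the 2913. This cut kept peaks scoring at least 242, 172 and 110 in transgenic replicates 1, 2 and 3. The upper quartiles of the 2913 were lower, at 125, 101 and 80.2. Most of the 2913 were thus removed by the cut itself, and the small overlap says nothing of whether they recur. Of 60485 regions with a peak in all 3 transgenic lists, 2913 (4.82%) had no wild-type peak, 17971 (29.7%) had a peak of 1 wild-type list, 22962 (38.0%) of 2 and 16639 (27.5%) of 3. Among those with 1 wild-type list, the list was that of replicate 2 in 16795, replicate 1 in 941 and replicate 3 in 235. Without wild-type replicate 2 the count of transgenic-only regions was 19757, without transgenic replicate 3 it was 10029 and without transgenic replicate 2 it was 4711.

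The mirror-image rule, a peak in all 3 wild-type lists and no transgenic list, found 24 regions, or 0.0152% of the same regions. Their lowest scores ran from 51.3 to 126 with a median of 59.4, and 15 of 24 (62.5%) overlapped a gene. They lay among others in Fig4, a lipid phosphatase gene, in Hltf, a helicase-like transcription factor gene, in Pdk4, a kinase gene of pyruvate metabolism, and in Sall3, a zinc-finger factor gene. Of the 17386 regions with all 3 wild-type peaks, 16639 also had all 3 transgenic peaks.

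The transgenic-only regions scored low. Their scores ran from 50.04 to 558 with a median of 92.1 in transgenic replicate 1, from 50.05 to 305 with a median of 79.4 in replicate 2, and from 50 to 222 with a median of 67.3 in replicate 3. In the 57572 regions with 3 transgenic peaks and at least 1 wild-type peak, the corresponding medians were 233, 164 and 107. The lowest of the 3 scores had a median of 61.2 in the transgenic-only regions and 101 in those shared regions. It was under 60 in 1342 regions (46.1%), 75 or more in 543, 100 or more in 109 (3.74%) and 150 or more in 10. Replicate 3, the shortest transgenic list, gave the lowest score in 1678 regions (57.6%), and replicate 1, the longest, gave the highest in 1613 (55.4%).

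**Figure D1:**
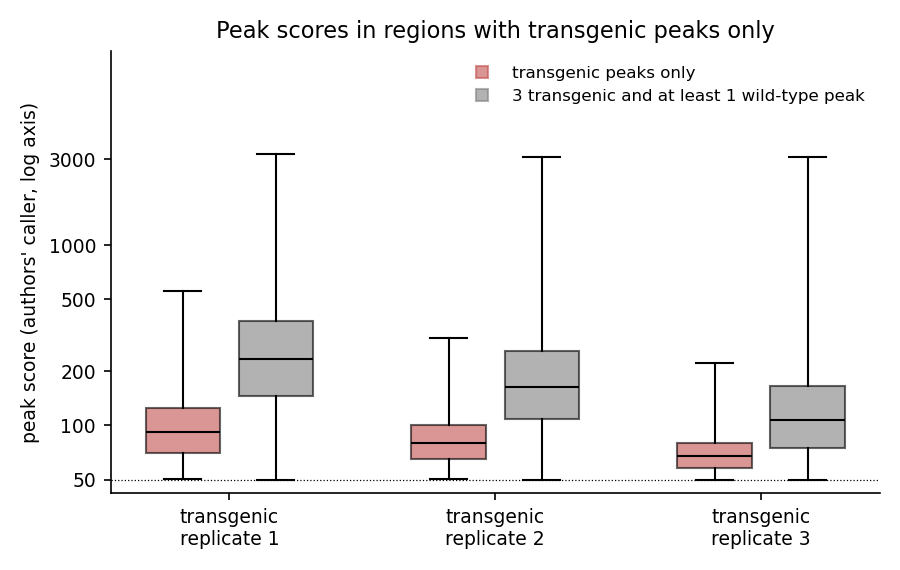
Peak score on a log axis in each transgenic replicate, for the 2913 transgenic-only regions (red) and the 57572 regions with 3 transgenic and at least 1 wild-type peak (grey). Boxes span the quartiles with the median as a line, whiskers reach the lowest and highest score, the dotted line marks 50, and the red medians of 92.1, 79.4 and 67.3 lie below the grey medians of 233, 164 and 107.

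Against the median of its own list, 1598 regions (54.9%) were below it in all 3 libraries and 115 were at or above it in all 3. The rank correlation of scores between replicates was 0.27, 0.22 and 0.18 over the 2913 regions, against 0.83, 0.77 and 0.72 over the shared regions. These coefficients are across regions, which are not replicates, and the rule itself leaves few high scores to rank. The 3 transgenic peaks had at least 1 base in common in 2897 regions and none in 16, and the common stretch had a median of 252 bp, or 58.3% of the region's width. In 29 regions a list had more than 1 peak. Widths ran from 210 to 1577 bp with a median of 446 bp, against a median of 633 bp for the shared regions.

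The width limit removed 3 regions. The 3 widest kept lay in Fbxo31, an F-box gene, at 1577 bp, in Cdc42bpb, a kinase gene, at 1560 bp, and in Abca13, a lipid transporter gene, at 1475 bp. The 3 just outside were 2541, 2627 and 2710 bp wide on chromosomes 8, 6 and 10. On the other side of the rule, the 17971 regions with 1 wild-type list had a median wild-type score of 105, and in 1467 of them that score was under 60. Their lowest transgenic score had a median of 73.1, so the nearest regions outside the rule scored somewhat higher in the transgenic lists.

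The region with the highest lowest score lay between genes on chromosome 1, at 44497219 to 44497735. It scored 220.5, 258 and 205 in transgenic replicates 1, 2 and 3. Its nearest gene was Gm39635, 24.8 kb away, and the nearest peak of wild-type replicate 2 was 5354 bp away. The next, at 20814725 to 20815745 of chromosome 12, was at an end of 1700030C10Rik and scored 254, 205 and 222. A peak of wild-type replicate 2 with a score of 77.0 lay 29 bp from it, so the gap to a wild-type peak was far shorter than the region.

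Among the 12 highest, 7 lay outside genes. A region on chromosome 3 (146531326 to 146531729), 9.90 kb from the ribosome biogenesis gene Rpf1, scored 249, 186 and 183. One on chromosome 16 (85234338 to 85234630), 59.1 kb from the amyloid precursor gene App, scored 182, 204 and 189.5, with the 3 replicates closer together than at most of these places. Another on chromosome 10 (6623471 to 6624072), whose nearest protein-coding gene was the opioid receptor gene Oprm1 at 134.5 kb, scored 337, 289 and 177. The others outside genes lay on chromosome 16 near Gm18694, on chromosome 17 near H2-M10.3, a class I histocompatibility gene, and on chromosome 13 near Prl3c1, a prolactin family gene, with lowest scores of 159, 149.5 and 147. In these 3 the nearest peak of wild-type replicate 2 was 54.6, 80.5 and 47.8 kb away.

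Of the 5 that overlapped a gene, 2 lay in Dnmt3b-ps1, the copy of Dnmt3b beside it on chromosome 2. The one inside the gene (153713426 to 153713719) scored 558, 248 and 169, and the one at its end (153729521 to 153729971) scored 459, 186 and 185, with replicate 1 highest in both. The transgene encodes a form of DNMT3B, and whether its own DNA gave reads at this copy was not tested. A region in 4930540E01Rik on chromosome 9 scored 159, 177 and 164. In Srpk2, which encodes a kinase of splicing factors, a region on chromosome 5 (23527637 to 23528115) scored 286, 174 and 150.3.

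At gene ends, here within 1000 bp of either end of a RefSeq gene, lay 347 regions (11.9%, 95% exact interval 10.8 to 13.1), against 11.7% of all merged regions. For protein-coding genes alone the shares were 5.15% and 5.17%. Regions near gene ends were therefore about as frequent as in the whole set. The highest scoring at gene ends, after 1700030C10Rik and Dnmt3b-ps1, was at Gm51997, a long noncoding RNA gene, with scores of 126, 153 and 137. It was followed by Spire1, which encodes an actin nucleator, with scores of 187, 175 and 122, and by LOC115487393, inside the leucine-rich repeat gene Lrrc20, with 176, 119 and 144. Gm5702, E130311K13Rik and Gm32141 completed the 8 highest, with lowest scores of 113, 111 and 109. Most of the 8 were noncoding, pseudogene or unnamed loci, and Spire1 was the one with a described protein function.

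The promoter table gives a start site with strand, and 31 of its autosomal promoters had a region in the 250 bases before the start, 16 of them of protein-coding genes. In 12 of the 31 the region covered all 250 bases. These promoters held a median of 7 CG sites in 250 bases (range 1 to 23), against 6 in all 31396 autosomal promoters, 7 in the 1957 promoters with any merged region and 9 in the 249 with a region of all 6 lists. Promoters with 15 or more CG sites made up 12.9% (4 of 31), 27.8%, 11.2% and 22.1% of these sets. The transgenic-only promoters thus had a CpG content like that of promoters with any merged region, and the CG count was read from RefSeq in the window before the start, not from the whole region.

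**Figure D2:**
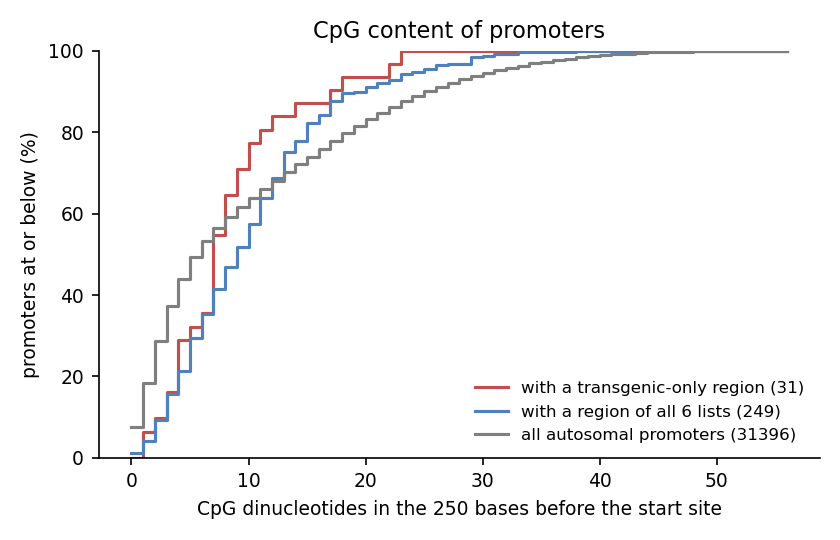
Cumulative share of promoters (percent) by the number of CpG dinucleotides in the 250 bases before the start site, for the 31 promoters with a transgenic-only region (red), the 249 with a region of all 6 lists (blue) and all 31396 autosomal promoters (grey). The red line begins at 1 and ends at 23, and its median of 7 lies between the medians of 6 and 9 of the other lines.

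The 4 promoters with 15 or more CG sites were those of Sox30, Zfp996, Rbm46 and Ap1m2. Sox30, a transcription factor gene of sperm cell development, held 23 CG sites, and its peaks scored 192, 60.3 and 51.7. Zfp996, a zinc-finger gene, held 22 and scored 146, 118 and 66.7, with a peak of wild-type replicate 2 at 81 bp. Its region covered 120 of the 250 bases and 11 of the 22 CG sites. Replicate 1 was highest in all 4. Hormone receptor promoters were also in the set, with Lhcgr, the luteinizing hormone receptor of the gonads, at 127, 79.4 and 110.4. The Lhcgr region covered 76 of the 250 bases. Cox7c, a subunit gene of cytochrome c oxidase, was covered over 23 of 250 bases by a region with scores of 144, 88.9 and 198. The bile acid receptor gene Gpbar1 was covered over 98 of 250 bases by a region with scores of 74.5, 62.4 and 50.2.

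Inside genes, 1954 of the 2913 regions (67.1%, 95% exact interval 65.3 to 68.8) overlapped a gene. The share was 62.3% for all merged regions and 58.1% for the shared regions with 3 transgenic peaks. For protein-coding genes it was 58.3% (1697 regions), against 53.1% and 48.8%. The transgenic-only regions were thus within genes more often by about the same amount for all genes and for protein-coding genes, and the intervals cover counting error only. Their median lowest score was 61.2 against 101 in the shared regions, and the gene shares were not compared at like score. Neighbouring regions are not independent, and regions with a lowest score of 60 or more gave 67.3%. The 959 regions outside genes lay a median of 14016 bp from the nearest gene.

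The regions touched 1835 genes, of which 1471 were protein-coding. With the 1000 bp margin, 1953 of 47042 autosomal genes (4.15%) had a region. Genes with a region were long, with a median of 62.05 kb against 6.28 kb for all autosomal genes, and 81.7 kb against 17.5 kb for protein-coding genes. The length of genes with any merged region was not computed. Gene length is therefore not shown to be particular to transgenic-only regions. In 212 genes there were 2 or more regions, in 37 there were 3 or more and in 7 there were 4 or more. Atrnl1, which encodes a large membrane protein related to attractin, held 6 of them among its 94 merged regions (6.38%), more than any other gene. Its transgenic-only regions were spread along the 522 kb gene on chromosome 19. The first of them, at 57642500 to 57642995, scored 283, 77.5 and 186, and the one at 57882089 to 57882603 scored 346, 129.8 and 66.1. The lowest scores of the 6 ran from 57.8 to 77.5.

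Vps35l, which encodes a part of an endosomal recycling complex, had 4 among 29 regions (13.8%), the largest share among the 7 genes with 4 or more. All 4 were weak, with lowest scores from 57.5 to 64.5. Thsd4, a thrombospondin-domain gene of the extracellular matrix, had 4 of 62 (6.45%), and Ppm1h, a protein phosphatase gene, had 4 of 49 (8.16%). Tenm2, a neuronal adhesion gene, had 4 of 60 (6.67%), and one of these, at 36880897 to 36881261 of chromosome 11, scored 148, 215 and 63.7. Wwox, a gene at a fragile site, had 4 of 175 (2.29%), and Slc39a11, a zinc transporter gene, had 4 of 97 (4.12%). These genes were picked for their counts, so the shares describe them and say nothing of genes in general.

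Genes that mark lung cell types held between 0 and 2 regions per list, and the lists hold too few merged regions to set their shares apart from 1.84%. Of 12 alveolar type 2 markers, the cells in which the transgene's promoter is active, 0 had a transgenic-only region among 36 merged regions. There were also 0 in the 8 airway markers (24 regions) and in the 9 immune markers (16 regions). The 8 alveolar type 1 markers held 1 region of 43 (2.33%), inside Aqp5, a water channel gene, which scored 52.4, 56.9 and 78.2. The 8 endothelial markers held 2 of 61 (3.28%), in Vwf, the von Willebrand factor gene, with 202, 167 and 66.1, and in Kdr, a receptor gene of vascular endothelial growth factor, with 63.2, 68.2 and 66.2. The 8 mesenchymal markers held 2 of 33 (6.06%), in Pdgfra and in Dcn, the decorin gene, which scored 181, 168 and 82.2.

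Of 18 genes that write, read or erase DNA methylation, 4 had a region, 5 regions of 129 (3.88%), beside 1.84% of all merged regions. They were Dnmt3b-ps1 with 2, and Dnmt3b, Dnmt1 and Tet2 with 1 each. The region in Dnmt3b scored 218, 93.5 and 91.5 and lay 60 bp from a peak of wild-type replicate 2. Dnmt1, the maintenance methyltransferase gene, scored 59.5, 79.0 and 58.3, and Tet2, an eraser gene, scored 82.6, 54.0 and 71.7. The regions of Dnmt3b and Dnmt3b-ps1 lie within 1 cluster of chromosome 2. Reads from the transgene, which encodes a form of DNMT3B, were not told apart from reads of these 2 loci. The share of this list therefore cannot be read as a gain of methylation at the genes themselves.

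Among 35 tumour suppressor genes, 11 had a region (31.4%), 15 of 702 merged regions (2.14%). The share of genes was above the 4.15% of all genes, while the share of their regions was near the 1.84% of all regions, and the genes had a median length of 69.0 kb. Lrp1b, a large lipoprotein receptor gene, had a region at 40895238 to 40895792 of chromosome 2 with scores of 149, 174 and 121. In Cdh13, a cadherin gene, one scored 161, 145 and 102, and in Csmd3 one scored 139, 88.9 and 95.9. Dcc, a netrin receptor gene, had one with 152, 84.4 and 101, whose nearest peak of wild-type replicate 2 was 72.4 kb away. In Nf1, the Ras regulator neurofibromin, the scores were 186, 116 and 56.6, and in Rassf5 they were 88.5, 72.6 and 97.1.

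Of 26 lung oncogenes, 3 had a region, 3 of 211 (1.42%), beside 1.84% of all merged regions. They were the receptor kinase genes Erbb4 (81.5, 86.8 and 75.04), Ntrk2 (197, 59.8 and 59.5) and Alk (56.5, 80.7 and 64.7). Among 44 genes of Wnt signalling, 4 had a region, 4 of 327 (1.22%). These were the ligand gene Wnt7b, the receptor gene Ror1, the relay gene Dvl2 and the target factor gene Lef1, with lowest scores between 50.2 and 57.1. All 4 sat near the floor of the score. The nearest peak of wild-type replicate 2 was 259 bp from the Wnt7b region, 454 bp from that in Ror1, 413 bp from that in Dvl2 and 2623 bp from that in Lef1.

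Genes of the neurexin and synaptic adhesion group had the most regions of the lists, 24 of 1191 (2.02%) in 14 of 46 genes (30.4%). The share of regions was near the 1.84% of all merged regions, while 4.15% of all autosomal genes had a region. The genes of this group had a median length of 907 kb. The 4 with the highest lowest score were in Grid1 (105, 121 and 80.2), Opcml (79.5, 79.8 and 90.9), Dab1 (85.9, 125 and 77.2) and Cdh6 (75.9, 77.9 and 82.6). The collagens had 7 of 437 (1.60%), in Col6a3, Col24a1, Col26a1, Col28a1, Col4a1 and Col13a1. Voltage-gated potassium channels had 5 of 182 (2.75%). The collagens and the channels hold too few regions to set their shares apart from 1.84%. A channel region in Kcnh7 scored 148, 148 and 122, with replicates 1 and 2 level, and lay 48.5 kb from a peak of wild-type replicate 2.

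The lists that follow hold too few regions to set their shares apart from the 1.84% of all merged regions. Germline and piRNA genes had 4 of 119 regions (3.36%), in Tdrd5 with 2, Tdrd9 and Piwil4. These encode proteins of the piRNA pathway, which silences transposons in germ cells. The region in Tdrd5 at 156302171 to 156302589 of chromosome 1 scored 113, 128 and 101, and its neighbour at 156301147 scored 112, 60 and 54.5. The 35 imprinted genes had 3 of 268 (1.12%), 2 of them in Rian, a noncoding RNA gene of the imprinted domain on chromosome 12, and 1 in Ndn, an imprinted gene of neurons. Homeobox and T-box genes had 2 of 214 (0.935%), in Pax3 (69.7, 112 and 85.9) and Tbx3os1 (145, 128 and 78.2). Tbx3os1 entered this list by its name and is not protein-coding, and its region lay 29.7 kb from Tbx3 itself. Clustered protocadherins had 1 of 83, in a stretch shared by 7 Pcdha genes. Olfactory and vomeronasal receptors had 5 of 274 (1.82%), among them Vmn2r13 with 97.9, 88.9 and 101.

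The distance from a transgenic-only region to the nearest peak of wild-type replicate 2, the longest wild-type list, had a median of 5054 bp and ran from 10 to 187856 bp. In 481 regions (16.5%) it was under 1000 bp, in 36 under 100 bp, in 909 (31.2%) over 10 kb and in 17 over 100 kb. Other merged regions without a peak of that list, 50930 in number, had a median of 5022 bp, with 15.6% under 1000 bp and 29.7% over 10 kb. Distances of the transgenic-only regions were therefore close to those of any region that this list lacks. To the shorter lists the medians were 11461 bp for replicate 1 and 28344 bp for replicate 3, and to a peak of any wild-type list 4357 bp.

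**Figure D3:**
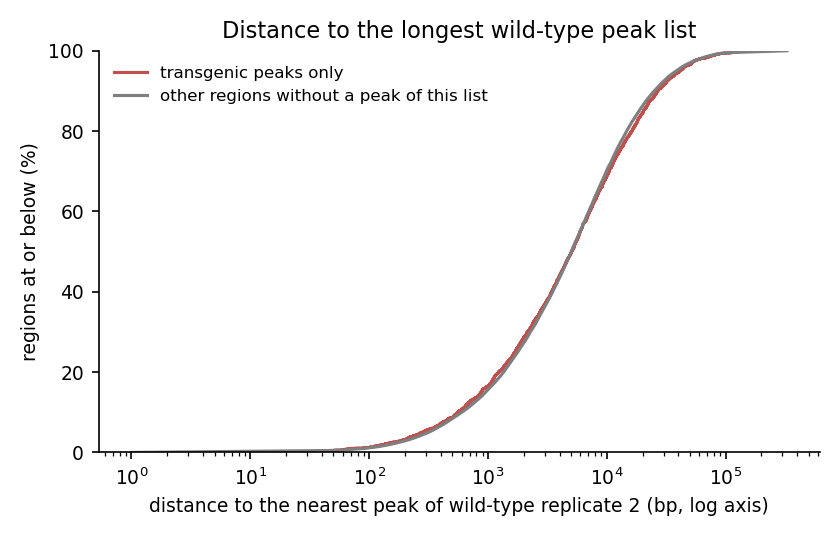
Cumulative share of regions (percent) by distance in bp, on a log axis, to the nearest peak of wild-type replicate 2, for the 2913 transgenic-only regions (red) and the 50930 other regions without a peak of that list (grey). The lines nearly overlie, with medians of 5054 and 5022 bp.

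Farthest from that list was a region in Gm38456 on chromosome 16 (24279596 to 24280032), 187856 bp from its nearest peak, with scores of 77.0, 68.8 and 101. In Sgcz, a sarcoglycan gene of muscle membranes, a region on chromosome 8 (38125499 to 38126023) lay 161588 bp away and scored 288, 183 and 87.5. Also among the farthest were 3 regions outside genes, nearest to Gm26107 and Ndst4 on chromosome 3 and to Rgs4 on chromosome 1. Their lowest scores ran from 62.6 to 74.9.

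Most transgenic-only regions had no other transgenic-only region within 100 kb. The nearest other one was a median of 208 kb away, 114 of 2913 (3.91%) had another within 10 kb, 887 (30.4%, 95% exact interval 28.8 to 32.2) had another within 100 kb, and 90.4% had another within 1000 kb. These shares depend on the number of regions and were not computed for all merged regions, so they give no measure of clustering. Chained at 100 kb, 2026 transgenic-only regions stood alone, and the rest formed 303 pairs, 79 clusters of 3, 6 of 4 and 4 of 5. The first cluster of 5 lay at 105968564 to 106131455 of chromosome 5, in a stretch where none of the 5 overlapped a gene. There the lowest scores ran from 54.0 to 79.5, and 10 of the 19 merged regions in the stretch had a peak of wild-type replicate 2. So wild-type peaks lay between the transgenic-only ones.

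The second, at 61757594 to 61874176 of chromosome 10, held 2 regions in Macroh2a2, a histone variant gene, and 2 in Col13a1, a membrane collagen gene. The fifth of its regions lay between those genes and scored 116, 116 and 86.4, the highest lowest score of this cluster. The third, at 122862011 to 123070066 of chromosome 10, held 3 regions in Ppm1h and 2 in Mon2, a gene of Golgi trafficking, and the fourth, on chromosome 13 from 59633798 to 59782410, held regions in Naa35, Golm1 with 2, 4921517D22Rik and Tut7. Clusters of 4 included one across Ptpn14, a phosphatase gene, and Smyd2, a lysine methyltransferase gene, on chromosome 1. Another on chromosome 2 (59799421 to 59952962) ran across Tanc1, Wdsub1 and Baz2b, and its region in Tanc1, a synaptic scaffold gene, scored 251, 152 and 132. In each of these 6 clusters, between 9 and 22 merged regions carried a peak of wild-type replicate 2.

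By chromosome, transgenic-only regions made up between 1.52% (chromosome 17) and 2.10% (chromosome 12) of merged regions. The 95% exact interval lay below 1.84% for chromosome 7 (151 regions, 1.31 to 1.81) and chromosome 17 (115 regions, 1.26 to 1.82), and it held 1.84% for the other 17 chromosomes. With 19 intervals set side by side and no adjustment, these 2 departures are given as description. The median lowest score ran from 57.4 on chromosome 14 to 62.8 on chromosome 16, and the share that overlapped a gene from 58.3% on chromosome 13 to 73.9% on chromosome 19.

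**Figure D4:**
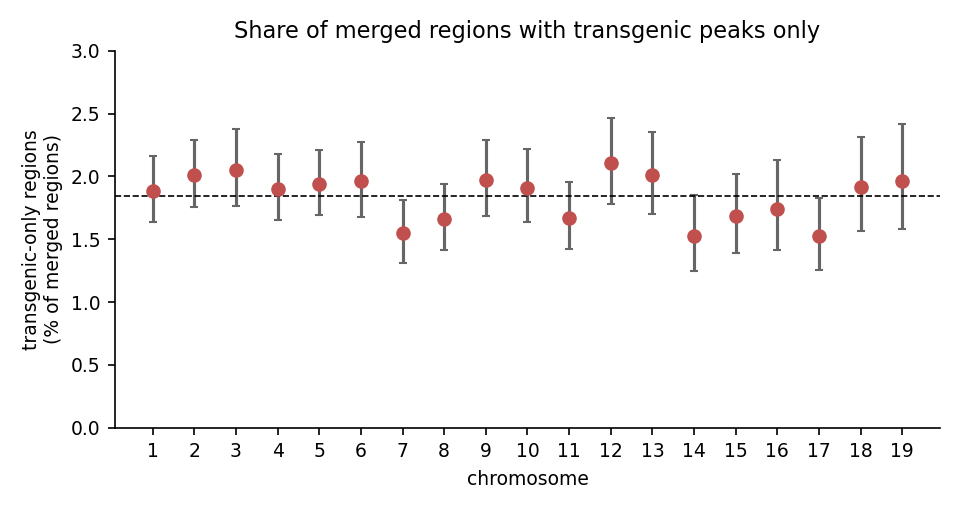
Transgenic-only regions as a percent of merged regions on each autosome (points), with 95% exact binomial intervals (bars) and the share over all autosomes as a dashed line. All points lie between 1.52% and 2.10%, and the bars of chromosomes 7 and 17 end below the line.

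The authors' deposited table of differential regions held 16 of the 2913 transgenic-only regions (0.549%), all higher in the transgenic mice. Among the 87799 autosomal merged regions that had peaks of at least 3 lists and were under the width limit, 261 (0.297%) were listed as higher and 86 (0.098%) as lower in the authors' deposited table. The same contrast chose the regions, so nothing is read from these shares. In the authors' deposited table their log2 folds ran from 1.16 to 3.51 with a median of 1.77, against a median of 0.61 for the 253 other autosomal higher regions. Their read concentration over all libraries in the authors' deposited table had a median of 3.12 (log2), against 6.38 for those 253, so the folds of the 2 sets are not at like concentration. Of the 16, 12 overlapped a RefSeq gene, and 67.1% of all 2913 transgenic-only regions did so. A CpG island was overlapped by 0 of the 16 in the authors' deposited table, where the nearest island was 1.32 to 1739 kb away. Gene and island overlap were not compared with the other regions listed in the authors' deposited table. The counts for the 16 therefore do not show that these regions favour genes or avoid islands.

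**Figure D5:**
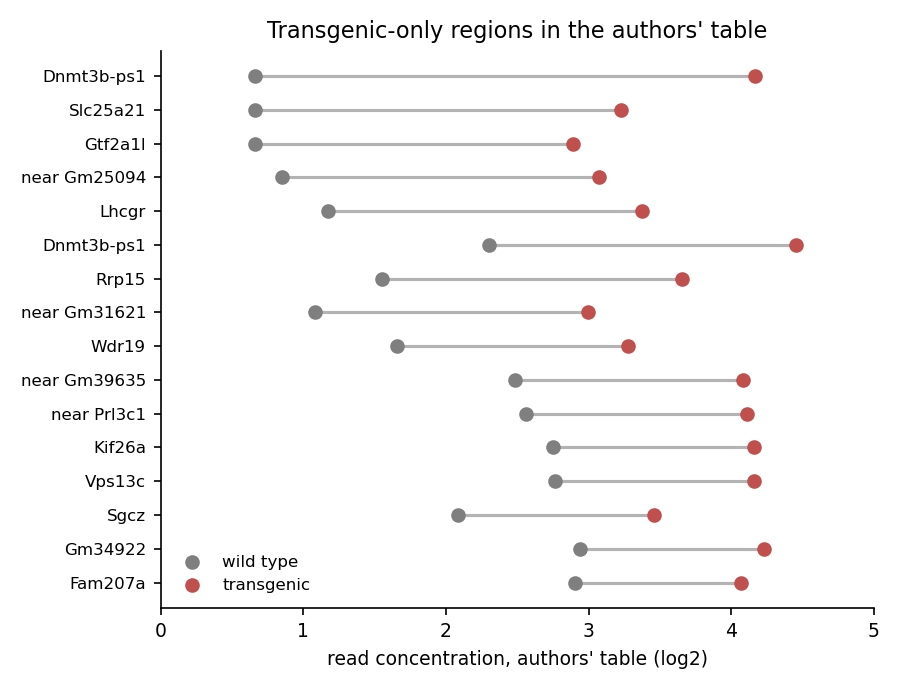
Read concentration (log2) of the 16 transgenic-only regions listed in the authors' deposited table, in the wild-type (grey) and transgenic (red) group, ordered by fold and named by the gene overlapped or nearest. Transgenic values lie between 2.89 and 4.46 and wild-type values between 0.66 and 2.94, and the first 3 share the lowest wild-type value.

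The lowest wild-type concentration of the authors' deposited table, 0.66, was shared by 3 regions, at Dnmt3b-ps1 inside the gene, at Slc25a21 and at Gtf2a1l. Slc25a21 encodes a mitochondrial carrier, and the authors' deposited table gave its region a transgenic concentration of 3.23 (log2) at an FDR of 0.0522. Its peaks scored 121, 72.8 and 92.2, and a peak of wild-type replicate 2 lay 601 bp away. For Gtf2a1l, a germ cell form of a general transcription factor subunit, the authors' deposited table gave 2.89 at an FDR of 0.0678, and the scores were 128, 71.2 and 74.2. Lhcgr lies close by on chromosome 17, and its log2 fold by the authors' deposited table was 2.20 at an FDR of 0.0861. In these 3 genes replicate 1 had the highest score.

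At Rrp15, a ribosome biogenesis gene, the authors' deposited table listed a log2 fold of 2.10 at an FDR of 0.0587, and a wild-type peak lay 376 bp from the region. By the authors' deposited table the log2 fold was 1.62 at Wdr19, a gene of transport in cilia, 1.41 at Kif26a, a kinesin family gene, and 1.39 at Vps13c, a lipid transfer gene. The region near Gm39635, first of all by its lowest score, had 1.59 at an FDR of 0.0695 by the authors' deposited table, and the region near Prl3c1 had 1.55 at an FDR of 0.0277. By score, 4 of the 12 highest regions were listed in the authors' deposited table, and the region at 1700030C10Rik was not among them.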

How the data were processed

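MBD-seq was done on DNA of 6 mouse lungs, with capture by the MethylCap kit, per the labels' protocols. Bowtie, DiffBind, edgeR and the build mm10 are named in the submitters' processing notes, without versions. Peaks were called per library. Their names are those MACS writes, with the caller's version not given in the sources used here. In the deposited lists the score is that of the authors' caller, unscaled between libraries. The authors' deposited table gives read concentrations and folds on a log2 scale and each p-value and FDR, per the file headers, with a normalization not given in the sources used here. Groups came from the sample titles. The labels call the 3 animals of a group biological replicates.

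Peaks were merged and counted with Python 3.11.15, NumPy 2.4.6, pandas 2.3.3 and SciPy 1.17.1, by code tested on simulated data. Printed starts are 1-based. Gene spans, promoters and microRNAs came from RefSeq tables of GRCm38.p6. Exons and introns were not resolved. Intervals are 95% exact binomial intervals for counting error only. Read depth is unknown, and only the number of peaks per list was compared.

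The members and the 18 gene lists were chosen with earlier results of these data known. Regions named were the 12 with the highest lowest score, the 8 such at gene ends, at most 4 per gene list, the 8 genes with most regions, the 6 densest clusters, the 6 farthest from wild-type replicate 2, at most 12 of the authors' table by fold, and the 3 on each side of the width limit. Of these, 1 gene and 1 region are not reported here. Promoters, microRNAs, Tet2, Nf1, Rassf5, Vps13c, and the wild-type-only genes were named after their values were seen. Alternatives changed the merging, width, score, gene windows, link distance, wild-type list and libraries used.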

Additional observations from a re-analysis of the deposited data

How the results depend on the processing

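The count of 2913 transgenic-only regions stayed within 1.5 times under other merging gaps (2864 at 100 bp and 2684 at 500 bp), with touching peaks kept apart (2913), with no width limit (2916), under 1000 bp (2889) and with no wild-type peak within 1000 bp (2384). It was 1571 when each transgenic peak scored 60 or more and 543 at 75 or more. With equal numbers of top-scoring peaks (28399 per list) it was 637, and the wild-type-only count became 154. Of the 637, 8 overlapped one of the 2913, most of which scored below that cut. Leaving out each library in turn gave 3148 to 19757. The share overlapping a gene was 58.3% for protein-coding genes. The share at a gene end was 7.93% at 500 bp, 19.09% at 2000 bp and 5.15% for protein-coding genes. The share with another region nearby was 3.91% at 10 kb, 90.4% at 1000 kb and 17.7% among regions with a lowest score of 60 or more, where fewer regions remain. The median distance was 11461 bp to wild-type replicate 1, 28344 bp to replicate 3 and 4357 bp to any wild-type list. The difference in peaks per list was 28993 for peaks scoring at least the pooled median, 95.3 (exact permutation p = 0.20) and 18787 to 57485 with each library left out. With the replicate number as a block it was 36417 (exact sign-flip p = 0.25, the smallest possible). The labels do not tie same-numbered animals together. The cause of these changes was not tested beyond what each setting itself removes. Absence from a short list does not show absence of methylation, and read depth is unknown.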

Other observations

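By the same rule, 25 of 5745 merged regions on chromosome X (0.435%) and 46 of 2162 on chromosome Y (2.13%) had transgenic peaks only, against 1.84% on the autosomes. The wild-type-only count was 0 on both. The sex of the animals is not given in the labels.

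Among the 24 autosomal regions with wild-type peaks only, the highest lowest score was 126, at 90911188 to 90911351 of chromosome 14, outside genes, with scores of 147, 126 and 229 in wild-type replicates 1, 2 and 3. A region in Gm30762 on chromosome 9 scored 120, 107 and 316, and one on chromosome 4 at 31354176 to 31354341 scored 106, 114 and 212. In these 3 the shortest list, replicate 3, gave the highest score. At Hltf the scores were 56.5, 54.9 and 92.1, and at Pdk4 they were 76.1, 51.3 and 63.1.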
